A study of Mus musculus with 4 samples.

Results

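The 46 genes described here had intron reads that differed between Elovl6 KO and WT cells while their exon reads differed little. They were picked out by a rule on the reads themselves. Intron and exon reads that map to 1 place were scaled to reads per 1000000 of the library's summed gene reads (RPM), and 0.1 was added. A gene on chromosomes 1 to 19 was kept if it had at least 100 intron and 100 exon reads over the 4 libraries and if the KO and WT mean intron levels differed by at least 0.6 on the log2 scale. The mean exon levels had to differ by less than 0.2, and both KO intron levels had to lie outside the range of the WT levels. Of the 51826 rows of the deposited table, 8724 had enough reads on these chromosomes, and 46 of them, 0.527%, met the rule. Intron reads were higher in KO for 34 genes and lower in KO for 12. These intron and exon values chose the genes, so they are given as a description. Counting intervals and counts of calls for the genes are given in the same sense and support nothing.

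The KO group was 2 samples of mouse bone marrow cells that lack Elovl6, an enzyme that lengthens saturated and monounsaturated long-chain fatty acids. The WT group was 2 samples with the unaltered gene. All 4 samples were Lin- c-kit+ cells, a fraction rich in blood stem and progenitor cells, transduced with MLL-AF9 and labelled 2 weeks, with no other age or strain given. MLL-AF9 is a fusion of KMT2A and MLLT3 that drives acute myeloid leukaemia. The labels do not say whether the replicates are separate animals or cultures, so any p-value here reflects how far these samples vary, and that variation may be technical.

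In RNA sequencing, exon reads come largely from mature mRNA, and intron reads come largely from pre-mRNA that has not yet been spliced, from introns kept in the transcript, or from other transcripts that lie within an intron. A gene's intron reads therefore respond to its transcription, to the speed and completeness of splicing and to the breakdown of unspliced RNA, whereas its exon reads also depend on how long the mature mRNA lasts. Where genes overlap, a read in one gene's intron can belong to the other gene's exon, which is why the genes that overlap these 46 were examined too.

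Uniquely placed gene reads numbered 15311917 and 16762093 in the KO libraries and 17112967 and 20408154 in the WT libraries, of which introns held 43.6% and 44.3% in KO and 44.6% and 43.8% in WT. Elovl6 itself had 17 and 34 exon reads in KO against 1289 and 1670 in WT, which fits the labels, while its introns still had 1172 and 1557 reads in KO against 2666 and 3479 in WT. Kit, the receptor used for the sort, was present at 81.6 and 64.5 exon RPM in KO and 80.3 and 76.3 in WT. Hoxa9, a target gene of MLL fusions, was present at 110 and 96.1 in KO and 120 and 132 in WT. A floor of 3 reads corresponds to 0.196 and 0.179 RPM in KO and 0.175 and 0.147 in WT.

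The large majority of genes whose introns differed this much also differed in their exons. Among the 8724 genes, 562, or 6.44%, had an intron difference of at least 0.6, and 528 of these also had separate KO and WT intron levels. Of the 528, 479 had an exon difference of at least 0.2 in the same direction, 3 had one in the opposite direction, and 46 had none of that size. The reverse, a separate exon difference of at least 0.6 beside an intron difference under 0.2, was seen in 40 genes, or 0.459%. Separate levels alone were common, since both KO intron values lay outside the WT range in 53.5% of the 8724 genes and both KO exon values did so in 54.0%. Among the 46 genes the exon levels were separate in 13, and the exon difference was above 0 in 29 and below 0 in 17.

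**Figure D1:**
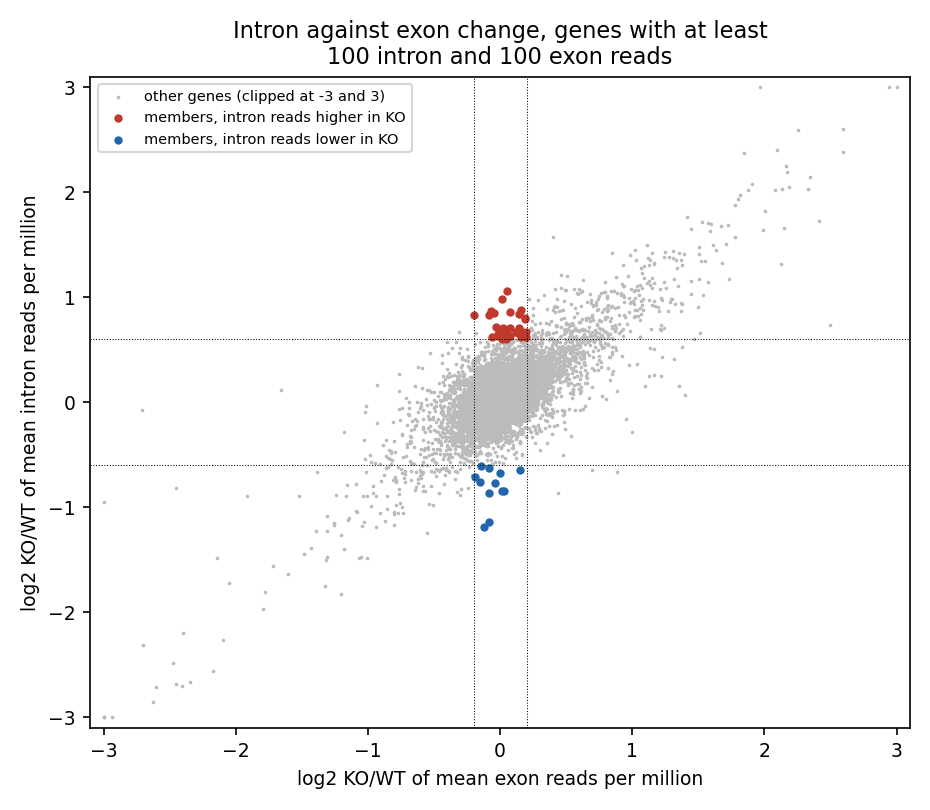
Each point is a gene with at least 100 intron and 100 exon reads, placed by the log2 KO/WT ratio of its mean exon level (horizontal) and mean intron level (vertical). Dotted lines mark the thresholds of 0.2 and 0.6. The 34 genes with more intron reads in KO (red) and the 12 with fewer (blue) sit above and below the main cloud, and most other genes with a large intron difference lie along the diagonal.

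Reads across exon-exon junctions come from spliced RNA. They are a part of the exon reads, whose difference the rule held under 0.2, so the rule favours small junction differences. The junction values that follow are therefore a description, and no share over all genes is given beside them. The junction difference was under 0.2 in size in 27 of the 46 genes. It reached 0.6 in 1 gene, Zfp229, where it was -1.13 on 2 and 2 junction reads in KO against 5 and 10 in WT, opposite to the intron difference. No member had a junction difference of that size in the direction of its intron difference.

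The values at the edges of the rule show how narrow the margins were. Just inside the intron threshold lay Taf1c at 0.61 and Stk11ip at 0.61, and just outside it H3f3b at 0.60 and Dscr3 at 0.59. Just inside the exon threshold lay Cndp2 at 0.19 and Zfp229 at -0.19, and just outside it Vhl at 0.20 and Dusp6 at -0.21, whose introns differed by 0.65 and -0.69.

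**Figure D2:**
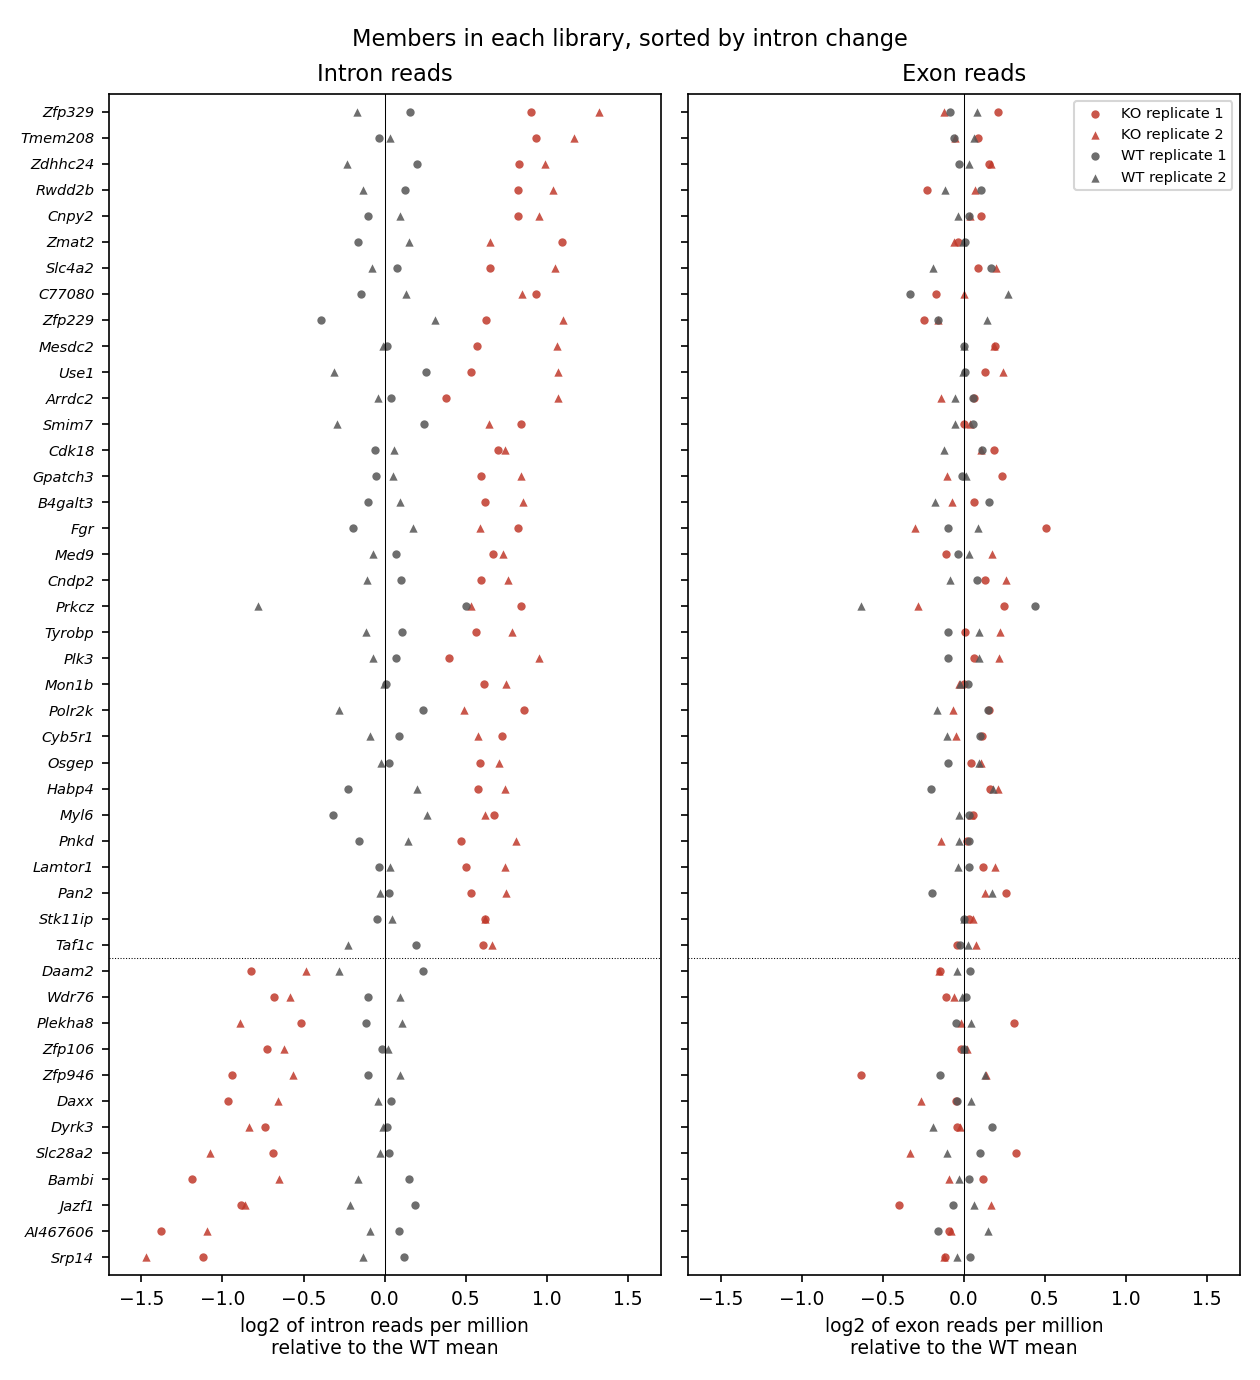
Each row is a gene of the set, ordered by intron difference, with 1 of the 46 not drawn, and each symbol is 1 library (KO red, WT grey, circles replicate 1 and triangles replicate 2). The horizontal axis is the log2 of the intron level (left) or exon level (right) relative to the WT mean of that gene. KO and WT symbols are apart in the left panel by the rule, and they intermingle in most rows of the right panel, where they are apart in 13 genes.

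The lower genes Zfp106, Wdr76 and Jazf1 had the most intron reads of the set, 2310, 2093 and 1488 over the 4 libraries. Zfp106 encodes an RNA-binding zinc finger protein needed for motor neurons in the mouse, and lies on the minus strand of chromosome 2 (120506820-120563843, mm10). Its introns had 24.2 and 26.1 RPM in KO against 39.5 and 40.5 in WT, a log2 difference of -0.67. Its exons had 250 and 256 RPM in KO against 253 and 253 in WT, a log2 difference of 0.00 on 17625 exon reads. The intron levels of the KO libraries were both low and close to each other, while the 4 exon levels overlapped. Introns supplied 9.03% of the gene's reads in KO and 13.7% in WT.

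Wdr76 encodes a WD repeat protein linked to the DNA damage response, and lies on the plus strand of chromosome 2 (121506723-121544860). Its introns had 22.3 and 23.9 RPM in KO against 33.4 and 38.2 in WT, a log2 difference of -0.63. Its exons had 44.9 and 46.5 RPM in KO against 48.9 and 48.1 in WT, a log2 difference of -0.09. Both read classes were lower in both KO libraries, the introns by much more than the exons.

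Jazf1 encodes a zinc finger cofactor known as a fusion partner in endometrial stromal sarcoma, and spans 52768797-53068631 on the minus strand of chromosome 6. It had the longest introns of the set, 297299 bases in all, and introns supplied 83.1% of its reads in KO and 89.4% in WT. Intron levels were 14.8 and 15.03 RPM in KO against 31.0 and 23.5 in WT, a log2 difference of -0.87. Exon levels were 2.42 and 3.58 in KO against 3.04 and 3.33 in WT, a log2 difference of -0.08. The KO intron levels were nearly equal and the WT ones were spread, and the exon levels overlapped on only 217 reads. Over pooled reads the intron ratio of KO to WT was 0.554, with a 95% Clopper-Pearson interval of 0.496 to 0.618. Such intervals, and the floor above, take in the error of counting alone, as no molecular identifiers were used.

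Srp14 and Slc28a2 are the other lower genes on chromosome 2. Srp14, a subunit of the signal recognition particle that targets nascent proteins to the endoplasmic reticulum (118475850-118479711, minus strand), had the lowest ratio of all 46. Its introns had 14 and 12 reads in KO against 37 and 37 in WT, or 0.815 ± 0.140 RPM in KO and 1.99 ± 0.247 in WT (SD, n = 2 each), a log2 difference of -1.19. Its exons had 26.5 and 26.4 RPM in KO against 29.5 and 27.9 in WT, so the KO exon levels were also lower but by a log2 difference of -0.12. Slc28a2, a concentrative nucleoside transporter (122426477-122461137, plus strand), had 3.20 and 2.45 intron RPM in KO against 5.26 and 5.05 in WT. Its exons had 7.25 and 4.59 RPM in KO against 6.19 and 5.39 in WT, and these overlapped. Introns supplied 32.4% of the reads of Slc28a2 in KO and 47.2% in WT.

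The other lower genes had few intron reads. AI467606, an uncharacterised gene on chromosome 7 (127091359-127093986, plus strand), had 12 and 16 intron reads in KO against 37 and 39 in WT, a log2 difference of -1.14, with exon levels of 19.7 and 19.8 RPM in KO and 18.7 and 23.1 in WT. Bambi, a decoy receptor that dampens TGF-beta signalling (chromosome 18, 3507957-3516404, plus strand), had 17 and 27 intron reads in KO against 48 and 46 in WT. Its exon difference was 0.01. Both genes thus had KO intron counts well below the WT counts and exon levels that overlapped.

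The kinase Dyrk3, known for the dissolution of stress granules (chromosome 1, 131127455-131138340, minus strand), had 3.20 and 2.98 intron RPM in KO against 5.38 and 5.29 in WT. Daxx, which with ATRX places histone H3.3 in chromatin (chromosome 17, 33909414-33915589, plus strand), had 1.11 and 1.37 in KO against 2.22 and 2.11 in WT. In these 2 genes the replicates of each group lay close together, and the log2 intron differences were -0.77 and -0.76. Zfp946, a zinc finger family gene (chromosome 17, 22424222-22456689, plus strand), had 26 and 37 intron reads in KO against 52 and 71 in WT. Plekha8, also called FAPP2, a glycosphingolipid transfer protein of the Golgi (chromosome 6, 54595111-54645839, plus strand), had 19 and 16 intron reads in KO against 28 and 39 in WT. The intron differences of Zfp946 and Plekha8 were -0.71 and -0.65, beside exon differences of -0.19 and 0.15. Daam2, a formin tied to Wnt signalling on chromosome 17, completed the lower genes with an intron difference of -0.61.

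The genes with more intron reads in KO are taken in an order of known roles, which was not tested for enrichment. Tmem208, an endoplasmic reticulum membrane protein (chromosome 8, 105326354-105335219, plus strand), had 28 and 36 intron reads in KO against 16 and 20 in WT. That is 1.99 ± 0.226 RPM in KO and 0.958 ± 0.0319 in WT (SD, n = 2 each), a log2 difference of 0.98. Its exon levels were 12.7 and 11.5 RPM in KO against 11.4 and 12.5 in WT, which overlapped. Cnpy2, a saposin-like protein of the same compartment (chromosome 10, 128322459-128327553, plus strand), had 56 and 67 intron reads in KO against 33 and 45 in WT, and its junction reads were 186 and 191 in KO against 203 and 206 in WT. Mesdc2, the chaperone of LDL receptor family proteins (chromosome 7, 83884466-83901532, plus strand), had 46 and 71 intron reads in KO against 35 and 41 in WT. Its exon levels were close to the threshold, at 34.1 and 33.9 RPM in KO against 29.9 and 29.9 in WT, so both read classes were higher in both KO libraries. Use1, a SNARE of retrograde transport, and the galactosyltransferase B4galt3 had intron differences of 0.79 and 0.69.

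Zdhhc24, of the palmitoyltransferase family (chromosome 19, 4878668-4885397, plus strand), had 3.79 and 4.24 intron RPM in KO against 2.45 and 1.81 in WT, a log2 difference of 0.88. Introns supplied 47.8% of its reads in KO and 34.8% in WT. Slc4a2, a chloride and bicarbonate exchanger (chromosome 5, 24423837-24440950, plus strand), had 72 and 104 intron reads in KO against 54 and 58 in WT, with exon levels of 25.5 and 27.6 RPM in KO and 27.0 and 21.0 in WT. The KO intron levels of both genes lay above the WT levels, and the 2 KO values of Slc4a2 were spread. Cyb5r1, of the cytochrome b5 reductase family, had an intron difference of 0.64.

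Zmat2, the homolog of the yeast spliceosome protein Snu23 (chromosome 18, 36793923-36799660, plus strand), had 62 and 50 intron reads in KO against 29 and 43 in WT, a log2 difference of 0.85. Its exon levels were 44.1 and 43.4 RPM in KO against 45.5 and 45.1 in WT, slightly lower in both KO libraries. Pan2, the catalytic subunit of a poly(A) deadenylase, was the only one of the 46 genes in the RNA lists below. It had 3.40 and 3.94 intron RPM in KO against 2.40 and 2.30 in WT, and 25.6 and 23.4 exon RPM in KO against 18.7 and 24.1 in WT. Its intron levels were separate and its exon levels overlapped, with log2 differences of 0.62 and 0.19. Other members were Med9 of Mediator at 0.68, Polr2k, a subunit shared by the RNA polymerases, at 0.64, and Taf1c of the polymerase I factor SL1 at 0.61.

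Zfp329, a zinc finger family gene (chromosome 7, 12804977-12818858, minus strand) had the largest intron difference among the 34, with 30 and 44 reads in KO against 20 and 19 in WT, or 2.29 ± 0.471 RPM in KO and 1.05 ± 0.168 in WT (SD, n = 2 each). Its log2 difference was 1.06 for introns and 0.05 for exons. Zfp229, of the same family (chromosome 17, 21730795-21769342, plus strand) had 29 and 44 intron reads in KO against 16 and 31 in WT, and lies 654.9 kb from the lower member Zfp946 on the same chromosome. Reads of zinc finger family genes can be shared with near copies, so these values are uncertain.

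C77080, the mouse counterpart of human KIAA1522 (chromosome 4, 129219578-129261404, minus strand), had 34 and 35 intron reads in KO against 18 and 26 in WT. Rwdd2b (chromosome 16, 87433407-87440573, minus strand) had 29 and 37 in KO against 20 and 20 in WT. Their intron differences were 0.84 and 0.87 and their exon differences -0.08 and -0.07. The remaining higher genes included the kinases Cdk18, Plk3 and Prkcz, Mon1b, which activates Rab7, Lamtor1, the lysosomal anchor of Ragulator, Osgep of the tRNA-modifying KEOPS complex, and the myosin light chain Myl6. Arrdc2, Smim7, Gpatch3, Habp4, Pnkd, Stk11ip, Cndp2, Fgr and Tyrobp made up the rest. Cndp2, a cytosolic dipeptidase on chromosome 18, had the most intron reads of the 34, 1012 in all. Its introns had 17.2 and 19.3 RPM in KO against 12.2 and 10.6 in WT, and its exons had 60.5 and 66.1 in KO against 58.6 and 52.0 in WT. Both read classes of Cndp2 were higher in both KO libraries.

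Tyrobp, the adaptor DAP12 of myeloid and NK cell receptors, and Fgr, a Src-family kinase of myeloid cells, are expressed in monocytes. The introns of Tyrobp had 6.33 and 7.40 RPM in KO against 4.62 and 3.97 in WT, while its exons had 71.1 and 82.3 in KO against 65.9 and 75.4 in WT. The introns of Fgr had 5.68 and 4.83 RPM in KO against 2.805 and 3.63 in WT. Its exons had 5.225 and 2.98 in KO against 3.45 and 3.92 in WT, which overlapped. The 10 genes of the monocyte and macrophage list summed to 1058 and 1322 exon RPM in KO against 784 and 825 in WT, with none at 0. By edgeR's quasi-likelihood test on exon reads, 3 of these 10 genes, Cybb, Lgals3 and Ctss, were higher in KO, with adjusted p of 0.00625, 0.0322 and 0.0465. Without WT replicate 1 the adjusted p values were 0.0840, 0.373 and 0.418, and without WT replicate 2 they were 0.0522, 0.259 and 0.284, so the calls were lost. On intron reads edgeR called 3 of the 8 genes tested higher in KO, Cybb, Lgals3 and Ccr2 (adjusted p = 0.00515, 0.00804 and 0.0322). Over all genes tested, 2.11% were called higher in KO on exon reads and 2.59% on intron reads. The intron calls of Cybb and Lgals3 held with each library left out, and that of Ccr2 was lost without KO replicate 2 (edgeR adjusted p = 0.0880), WT replicate 1 (0.135) or WT replicate 2 (0.0850). In bulk samples more cells of a type and more RNA per cell cannot be told apart, and the part of monocyte content in the intron differences was not tested.

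Other cell types were represented at lower levels. The eosinophil list summed to 24.6 and 7.40 exon RPM in KO and 179 and 47.3 in WT, with Ccr3 at 0. The mast cell and basophil list summed to 11.4 and 19.1 in KO and 23.0 and 20.8 in WT, the stromal and endothelial list to 71.0 and 88.5 in KO and 88.6 and 90.7 in WT, and the T and NK cell list to 25.3 and 35.8 in KO and 18.3 and 14.9 in WT, with Cd3e at 0. The erythroid list, with Hba-a1 at 0, summed to 4.57 and 2.86 in KO and 11.4 and 14.6 in WT, the B cell list to 5.16 and 3.16 in KO and 8.999 and 9.46 in WT, and the megakaryocyte list to 1.31 and 0.895 in KO and 2.40 and 1.67 in WT. All these sums except that of the T and NK cell list were lower in both KO libraries than in both WT libraries, narrowly so for the mast cell and the stromal lists, and their part in the intron differences was not tested. In these lists edgeR called Car2 and Cd79b lower and Thy1 higher in KO on exon reads (adjusted p = 0.0241, 0.0491 and 0.0440), and Car2 and Epx lower on intron reads (adjusted p = 0.0104 and 0.0454). On exon reads all 3 calls were lost without WT replicate 1 and without WT replicate 2, and the intron call of Epx was lost without KO replicate 2 or WT replicate 1. None of the 46 genes is in a marker list.

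The 46 genes had few intron reads. Their median was 189.5 intron reads over the 4 libraries, with a range of 100 to 2310, against a median of 997 over the 8724 genes. The median was 962.5 exon reads, against 1938 over all. Their introns were shorter, with a median of 7560 bases against 23530, and supplied a smaller share of gene reads, 17.6% against 35.7%. The 12 lower genes had a median intron length of 29710 bases, above that of the 34 higher genes at 7320. All 46 were protein coding, as were 98.2% of the 8724.

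**Figure D3:**
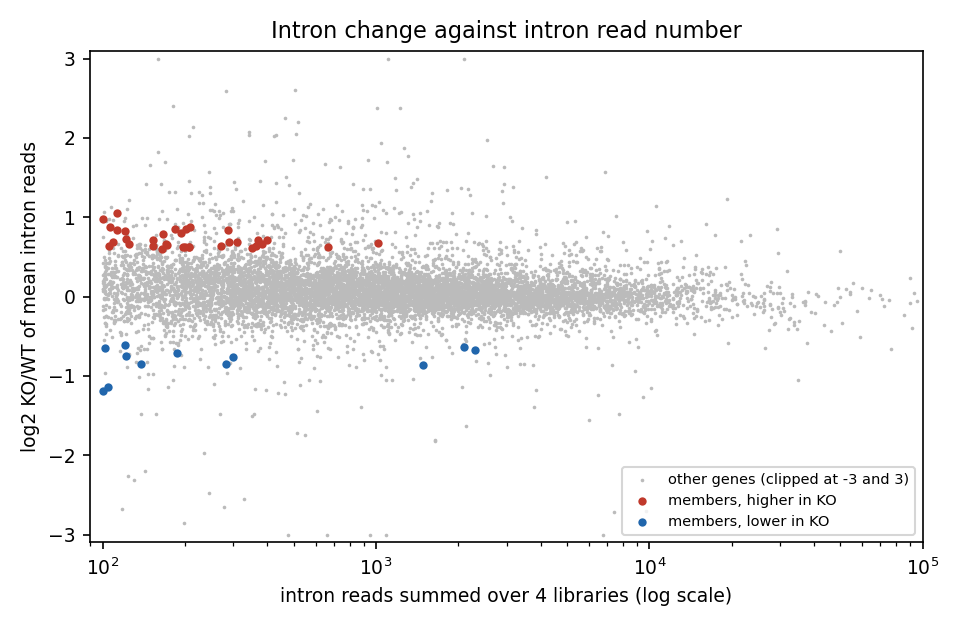
Each point is a gene, with intron reads summed over the 4 libraries on a log scale (horizontal) and the log2 KO/WT ratio of mean intron levels (vertical). Genes with higher intron reads in KO are red and those with lower are blue. The cloud of other genes widens toward low read numbers, where 25 of the 46 members lie between 100 and 199 reads.

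The share of genes that met the rule depended on the number of reads. It was 2.83% of genes with 100 to 199 intron reads (25 members), 0.868% with 200 to 499 (16 members), 0.0906% with 500 to 1999 (3 members) and 0.0745% with 2000 or more (2 members, Zfp106 and Wdr76). Over the same bins the SD of the intron difference across all genes was 0.460, 0.399, 0.336 and 0.285, and the median counting error of that difference was 0.241, 0.161, 0.0917 and 0.0451. Both the spread over all genes and the counting error were thus largest where most members lie, and their part in the membership was not tested. Every member's 95% counting interval of the pooled intron ratio excluded 1, which the rule favours, but it lay wholly past a difference of 0.6 in only 2 genes, Jazf1 and Srp14. The interval of Srp14 was 0.252 to 0.650. Counting intervals of the pooled exon ratio were wide where exon reads were few. That of Prkcz, with 109 exon reads, was 0.692 to 1.525, and that of Jazf1, with 217, was 0.716 to 1.246. That of Zfp106, with 17625, was 0.971 to 1.031. In members with few exon reads the size of the exon difference is thus uncertain.

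No gene that overlaps one of the 46 had exon reads that differed by at least 0.6 in the direction of the member's introns. Only 4 members had a gene with an exon in an intron and at least 20 exon reads, so few could be examined. A matching partner was defined as a gene with an exon inside an intron of the member, at least 20 exon reads, an exon difference of at least 0.6 in the direction of the member's intron difference and separate KO and WT levels. Such a partner was found for 0 of the 46 genes, against 54 of the 8724, or 0.619%. It was found for 7 of the 482 genes that differed in both introns and exons, or 1.45%. With a background this low, 0 of 46 is near it.

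Overlaps as such were not more frequent among the members. Another gene's span overlapped 18 of the 46, or 39.1%, against 53.2% of the 8724, and another gene's exon lay in an intron of 14, or 30.4%, against 42.0%. That exon was on the same strand in 6 and on the opposite strand in 10 of the members. Of the 20 pairs with an exon in a member's intron, 13 partners had no exon reads, 3 had 1 to 19 and 4 had at least 20. For 9 of the 13 the deposited table gives an exon length of 0, so those partners could hold no exon reads. They include all 3 genes within Jazf1, the processed pseudogenes Gm15572 and Gm15573 and the small RNA gene Gm26215. Gm26899, a long noncoding RNA gene opposite Zfp106, had an exon length of 3328 bases and 0 exon reads.

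The 4 partners with at least 20 exon reads are all on the opposite strand. Fhod1, a formin, has 3043 exon bases within introns of Tmem208 and had 292 and 326 exon reads in KO against 360 and 389 in WT, many more than the introns of Tmem208. Tmbim1, a membrane protein of the BAX inhibitor motif family, has 12659 exon bases within introns of Pnkd and had 97 and 92 exon reads in KO against 125 and 140 in WT, while the introns of Pnkd had 47 and 65 in KO against 34 and 50 in WT. In these 2 pairs the partner's exon difference was -0.06 and -0.26, opposite in sign to the member's intron difference. Fastk, a mitochondrial RNA regulator, overlaps introns of Slc4a2 by 338 bases, and its exon difference was 0.23. Ppox, an enzyme of haem synthesis, overlaps introns of B4galt3 by 116 bases, and its exon difference was -0.04. Yars, a tyrosyl-tRNA synthetase, overlaps only an exon of C77080, by 30 bases, with an exon difference of 0.17. Intron reads of overlapping genes were not part of the definition of a partner. They differed by 1.09 in Syce1l, which overlaps Mon1b, on 31 reads, and by 1.18 in Tomt, which overlaps Lamtor1, on 65 reads. In Yars and Ppox they differed by -0.51 and -0.86, opposite to the introns of C77080 and B4galt3. The part of these reads in the members' introns was not tested.

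No label or file header says how the counting treated strand, so reads of opposite genes cannot be assigned from the labels. Some values were examined, but they cannot decide it. Among the pairs examined, 20 genes with at least 100 exon reads lie wholly inside an intron of an opposite-strand gene. In 11 of these pairs, 55.0%, the host's intron reads were fewer than the nested gene's exon reads. For nested genes on the same strand this held in 2 of 6 pairs. Strand cannot separate the reads of such same-strand pairs, so these counts do not show how strand was treated. In Tmem208, too, the introns held fewer reads than the opposite exons of Fhod1.

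Neighbours that do not overlap were examined within 5 kb. In all, 31 members had 40 such neighbours with at least 20 exon reads, with exon differences between -2.09 and 1.39. Of the 40, 3 neighbours had separate levels and a difference of at least 0.6 in the direction of the member's introns, against 209 of 4771 such pairs, or 4.38%, over the 8724 genes. Capn3, a calpain protease, lies 1907 bases from Zfp106 on the opposite strand and had 6 and 6 exon reads in KO against 32 and 40 in WT, and 18 and 27 intron reads in KO against 118 and 105 in WT. Both read classes of Capn3 were far lower in KO, with log2 differences of -2.09 and -2.04. Kcnn1, a calcium-activated potassium channel 2329 bases from Arrdc2, had 16 and 14 exon reads in KO against 6 and 5 in WT, and 5 and 3 intron reads in KO against 7 and 6 in WT, in the opposite direction. BC051226, 97 bases from Daxx, had 8 and 6 exon reads in KO against 19 and 12 in WT, and 2 and 1 intron reads in KO against 2 and 2 in WT. Intron reads of neighbours were not part of this count. They differed by 0.94 in Bbs1, 1481 bases from Zdhhc24, on 85 reads, in the direction of the introns of Zdhhc24. In Frmd5, 669 bases from Wdr76, they differed by 0.97 on 645 reads, opposite to the introns of Wdr76. Whether transcripts of these neighbours reach into the members' introns was not tested.

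All 4 members on chromosome 2 were lower, and they lie within 3.985 Mb, between 118475850 and 122461137. The other 50 genes of this window with enough reads had a median intron difference of -0.11 and a median exon difference of -0.03, against 0.05 and 0.00 over the 8724. Of the 50, 33 had an intron difference below 0, which 39.6% of all genes had. Only Spint1 and Ganc were at or below -0.6, with -2.68 and -0.64 for introns and -2.45 and -0.61 for exons, and Bub1b and Chp1 were at or above 0.6. At the thresholds of the rule, low introns beside steady exons were thus seen in 4 of 54 genes of the window, among neighbours of several kinds. Some other genes came near these thresholds. Rmdn3 and Tmem87a were both at -0.51 for introns, with exons at 0.02 and -0.19. Ccndbp1 went the other way, at 0.41 for introns and 0.04 for exons. Eif3j1, inside the window, had the reverse, -0.08 for introns and -2.71 for exons, and Mfap1b and Dnajc17 differed more in exons (-1.03 and -0.99) than in introns (-0.36 and -0.50). The genes of a window chosen by its members are a description. Spint1, Ganc, Bub1b, Chp1, Rmdn3, Tmem87a, Ccndbp1, Eif3j1, Mfap1b and Dnajc17 were named after their values were seen.

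**Figure D4:**
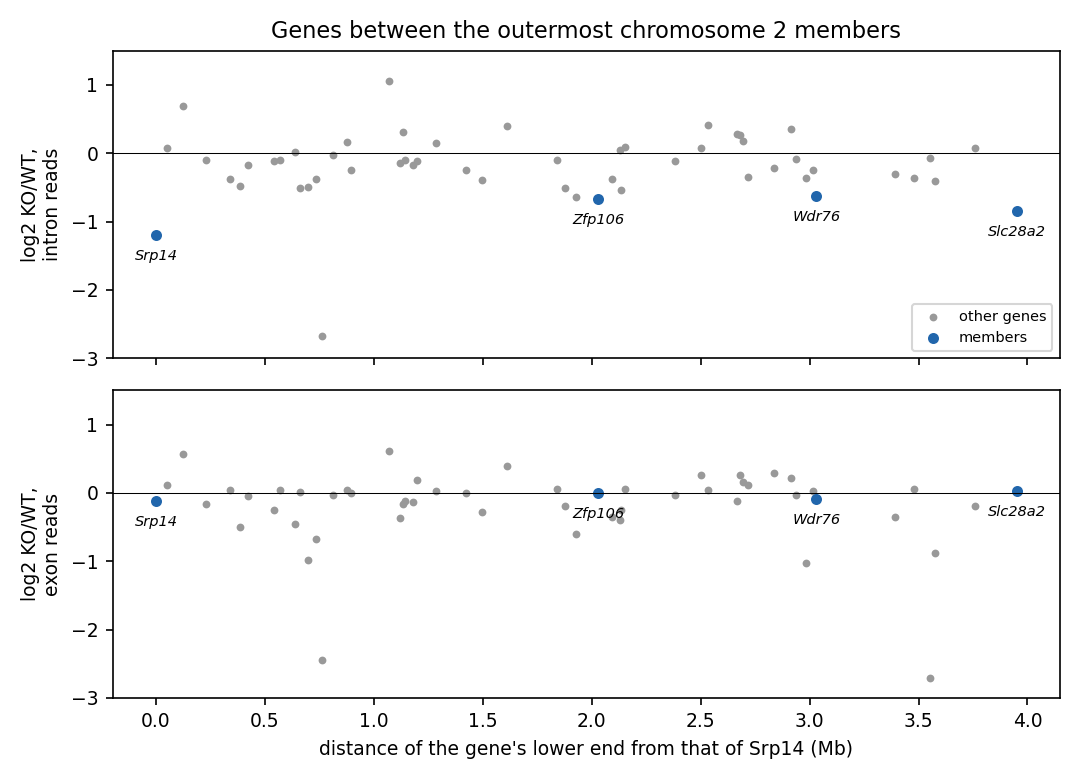
Genes between the outermost members of chromosome 2, placed by distance from Srp14 in Mb (horizontal), with the log2 KO/WT ratio of intron reads above and of exon reads below. The 4 members are blue and the 50 other genes are grey. The members lie between -1.19 and -0.63 for introns and between -0.12 and 0.03 for exons. The other genes are spread, with medians of -0.11 for introns and -0.03 for exons, and 33 of the 50 lie below 0 for introns. The lowest grey points for exons are Eif3j1 at -2.71 and Spint1 at -2.45.

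The members of chromosomes 4, 8 and 10, numbering 6 of 562, 6 of 456 and 3 of 438 genes with enough reads, were all higher. Chromosome 1 had 5 higher and 1 lower among 539 genes. Chromosomes 3, 9 and 12 had none among 428, 497 and 320 genes. Over all chromosomes 0.527% of genes met the rule and 34 of the 46 were higher, and departures by chromosome were not tested. On chromosome 10, Pan2 and Cnpy2 lie 1.1 kb apart on the same strand, and Myl6 lies 163.3 kb further on. The 5 other genes between Pan2 and Myl6 had a median intron difference of 0.15 and a median exon difference of 0.11, and none of them passed 0.6.

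edgeR's quasi-likelihood test was fitted to all genes to give a background. It called 595 of 12359 genes on intron reads, or 4.81%, 320 higher (2.59%) and 275 lower (2.23%) in KO, at an adjusted p of 0.05. On exon reads it called 387 of 11635, or 3.33%, 246 higher (2.11%) and 141 lower (1.21%). The test of intron difference against exon difference called 170 of 10333 genes, or 1.65%, of which 48 (0.465%) had the intron difference above the exon difference and 122 (1.18%) had it below. Among the 46 genes, 6 were called on intron reads, 0 on exon reads and 9 in the test of the difference. Because the members were chosen on the same reads, nothing is read from these counts. At an unadjusted p under 0.05, 2427 of 11635 genes passed edgeR's test on exon reads, and members among them were not counted. DESeq2 called 468 of 17646 genes on exon reads, with none of the 46 among those 468. The rule held exon differences under 0.2, which favours such an outcome, so nothing is read from it.

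The members called in the test of the difference were Zfp106, Wdr76, Jazf1, Slc28a2, Srp14, Dyrk3, AI467606, Zmat2 and Cndp2, and the first 4, Dyrk3 and Cndp2 were also called on intron reads. Their p-values are not given, because the rule picked genes with a large intron and a small exon difference in these libraries. The calls are those of the main fit. With RLE scaling 7 members were called in the test of the difference, and the calls of Dyrk3 and Jazf1 were lost. Each of the calls other than those of Zfp106 and Wdr76 was lost with at least 1 of the libraries left out. With 1 library left out the estimate of Jazf1 ranged between -0.48 and -1.09, and that of Zfp106 between -0.70 and -0.73. Over all genes the test of the difference called 117 without KO replicate 1, 35 without KO replicate 2, 75 without WT replicate 1 and 217 without WT replicate 2.

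Membership, too, varied with the libraries used. The rule held for 104 genes without KO replicate 1, 76 without KO replicate 2, 80 without WT replicate 1 and 112 without WT replicate 2, of which 31, 21, 30 and 30 were among the 46. Fewer libraries make it easier for the KO and WT levels to be separate. The 8 genes that met the rule in all 4 of these sets were Zfp106, Srp14, Bambi, Tmem208, Cnpy2, Zdhhc24, Zmat2 and Med9. With each read class scaled by TMM, a scaling that brought the median intron difference of all genes to 0.00, 40 genes met the rule, 23 higher and 17 lower, against 34 and 12.

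Lists of the splicing and RNA decay machinery were read beside the members. Over all genes tested, edgeR called 3.33% on exon reads and 4.81% on intron reads. At those shares few or no calls fall in lists this short, so nothing is read from counts of 0. On exon reads edgeR called 0 of 12 SR proteins, 0 of 15 core spliceosome genes, 0 of 19 hnRNP genes, 0 of 10 genes of nonsense-mediated decay, 0 of 15 nuclear exosome genes and 0 of 8 splicing kinases at an adjusted p of 0.05. Of the 14 ARE and mRNA decay genes it called 1, Zfp36l1, which binds AU-rich elements and promotes mRNA decay, with a log2 difference of 2.16 and an edgeR adjusted p of 0.0443. That call was lost without KO replicate 2 (edgeR adjusted p = 0.110), WT replicate 1 (0.399) or WT replicate 2 (0.271). On intron reads edgeR called 1 gene of the 7 lists, Clk4, which is 1 of the 8 splicing kinases tested. It was lower in KO by a log2 difference of -0.43 (edgeR adjusted p = 0.0317). This call was lost without KO replicate 2, WT replicate 1 or WT replicate 2.

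The medians of these lists lay near 0. In the exon fit they were -0.06 for SR proteins, -0.05 for the core spliceosome, -0.10 for hnRNP genes, -0.07 for nonsense-mediated decay, -0.07 for the nuclear exosome, 0.05 for splicing kinases and 0.04 for ARE and mRNA decay, against -0.01 over all genes tested. In the intron fit they ranged between -0.10 for hnRNP genes and 0.04 for the core spliceosome, against 0.01 over all genes tested.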

How the data were processed

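Total RNA of 4 samples was extracted with Trizol, and the libraries (NEBNext Ultra Directional kit) keep strand, per the labels' protocols. The deposited table gives whole-number counts of uniquely placed intron, exon, junction and gene reads per gene and library, per the file headers. The submitters' processing notes name mm10. No aligner, counter or strand setting is given in the sources used here. Groups and replicate numbers came from the titles, and 61 other per-sample columns were not used.

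The members, the 7 RNA lists and the 8 marker lists were chosen with earlier results of these data known. Genes named with values were the 10 with the largest intron difference in each direction, members in a list, members with a matching overlapping gene and those nearest each threshold. The other genes given with values, such as Tyrobp, Fgr, the overlapping genes and the neighbours, were named after their values were seen. The values of 1 member are not reported here.

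Table starts count from 0 and were raised by 1. Strand, biotype and overlaps came from GENCODE vM21 by gene ID (99.6% matched). Of the 46 members, 35 had the same exon length and 41 the same span there.

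edgeR 4.0.16 (R 4.3.3) was run on the deposited counts with its default filter for low counts, TMM scaling and glmQLFTest, and adjusted p-values are Benjamini-Hochberg over all genes tested. The difference test used 8 columns, intron and exon counts of each library, with library as a block. The fits were tested on simulated data. DESeq2 1.42.0, other scalings and filters, and leaving out each library were alternatives.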

Additional observations from a re-analysis of the deposited data

How the results depend on the processing

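The rule gave 46 genes, 34 higher and 12 lower in KO. With a pseudocount of 1 it gave 18 (11 higher, 7 lower), with at least 50 reads of each class 85 (62 and 23), with at least 200 reads 21 (16 and 5), with an exon threshold of 0.1 28 (21 and 7) and with an intron threshold of 0.8 15 (10 and 5). Scaling by read class gave 49, TMM 40 (23 and 17) and total exon reads 46. Without 1 library it gave 76 to 112 genes, 47 to 95 higher and 17 to 29 lower. A matching overlapping gene was found for 0 members, and for 0 to 1 without 1 library. Of 322 intron differences recomputed for single members, 0 changed sign and 15 moved by more than the replicate spread, all with a pseudocount of 1. edgeR calls on intron reads numbered 595, and 1565 with no filter on low counts, 612 with RLE scaling, 461 with DESeq2 and 287 to 1299 without 1 library (1299 without KO replicate 1, 287 without WT replicate 1). Those on exon reads numbered 387, and 1663 with no filter, 293 with RLE, 468 with DESeq2 and 11 to 1533 without 1 library: 1533 without KO replicate 1, 15 without WT replicate 1 and 11 without WT replicate 2. Those on the difference numbered 170, and 35 (without KO replicate 2) to 217 (without WT replicate 2) without 1 library. With 1 sample left in a group, that sample is assumed to vary like the other group. The cause of these changes was not tested. The samples share only a number across groups (same-number correlation of deviations 0.0433 for intron and 0.0996 for exon reads). A replicate block gave 1430 calls among 12359 genes on intron reads and 701 among 11635 on exon reads. Of the 46 members, 18 were among the intron calls. The rule chose the members on these reads, so nothing is read from that count. Most members have under 200 intron reads, which limits the precision of each.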

Other observations

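The opposite pattern, exons that differed by at least 0.6 on the log2 scale with separate KO and WT levels and introns that differed by less than 0.2, was seen in 40 of the 8724 genes, or 0.459%, 17 higher and 23 lower in KO. The genes named here were chosen after their values were seen. Eif3j1, within the chromosome 2 window above and a subunit of the translation initiation factor eIF3, had 23 and 29 exon reads in KO against 207 and 208 in WT, a log2 difference of -2.71. Its introns had 668 and 714 reads in KO against 786 and 918 in WT, a log2 difference of -0.08. With reads that map to several places included, its exon difference was -1.40, and since Eif3j1 has a near-identical copy, Eif3j2, its values are uncertain.

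Hmga1, an architectural chromatin protein, had 625 and 673 exon reads in KO against 2002 and 2834 in WT, beside 466 and 516 intron reads in KO against 479 and 579 in WT. Its exon difference was -1.66, and -2.06 with reads that map to several places. With those included it had 2022 and 2159 exon reads in KO against 8977 and 11559 in WT. Most of its exon reads thus map to several places, so its values are uncertain. Ago4, an Argonaute protein, had 122 and 119 exon reads in KO against 197 and 234 in WT, with an intron difference of -0.05. In these genes both KO exon counts lay below both WT counts, while the intron differences were under 0.2.

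On the higher side, S100a10, a calcium-binding protein that partners annexin A2, had 331 and 654 exon reads in KO against 233 and 299 in WT, beside 34 and 76 intron reads in KO against 58 and 54 in WT. Ccdc28a had 86 and 81 exon reads in KO against 37 and 37 in WT, with an exon difference of 1.35 and an intron difference of 0.15. The ribosomal protein genes Rpl34, Rps18 and Rps28 were lower in their exons, by -1.02, -0.74 and -0.67. With reads that map to several places they were at -0.65, -0.48 and -0.35, and since ribosomal protein genes have many near copies these values are uncertain.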
